A study of Mus musculus with 24 samples.

Results

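Mitochondria fold and clear their own proteins with a small set of chaperones and ATP-driven proteases. Hspd1 (HSP60) and its lid Hspe1 (HSP10) form the chaperonin of the matrix, Hspa9 (mortalin) is the matrix HSP70 that pulls in and folds imported proteins, and Trap1 is the mitochondrial HSP90. Lonp1 and the pair of Clpp (peptidase) and Clpx (unfoldase) degrade matrix proteins, Afg3l2 and Spg7 (paraplegin) build the m-AAA protease of the inner membrane, and Yme1l1 is the i-AAA protease that faces the intermembrane space. Heart muscle is dense in mitochondria, and several of these genes are textbook targets of the mitochondrial unfolded protein response.

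The genes described here are these 10, taken by their symbols from the 24421 gene rows of the count files in all 24 libraries. The rule names them by symbol, and they were chosen with earlier results of these data known. All 10 were detected in every library and passed the filter on low counts. The libraries are polyA RNA-seq of hearts of male mice, 14 weeks old, on chow and on a mixed strain background that was mostly C57BL/6N. The long-chain (Acadl) and very long-chain (Acadvl) acyl-CoA dehydrogenases catalyse the opening step of mitochondrial fatty acid oxidation. The groups were 4 hearts labelled Acadl KO / Acadvl wt, 5 labelled Acadl KO / Acadvl Het, 4 of Acadl Het / Acadvl KO, 3 of Acadl Het / Acadvl Het, 4 of Acadl Het / Acadvl wt and 4 of Acadl wt / Acadvl wt, called wild type here. The Acadvl KO hearts were thus also Acadl Het, as were the hearts they were set against. Whether each heart is a mouse of its own is not stated, and the p-values measure the spread between these libraries alone.

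Total counts ranged from 34320838 to 51743114 per library, and each of the 10 genes had 2118 to 51897 reads in a library, so counting error was a small part of each value. Acadvl checked its label at 599 ± 121 CPM (counts scaled by library size with TMM factors, mean ± SD, n = 4) in Acadvl KO hearts and 1632 ± 82.5 CPM in those of Acadl Het / Acadvl wt (n = 4). Acadl went against its label, at 1894 ± 167 CPM in the hearts labelled Acadl KO / Acadvl wt and 1358 ± 42.0 CPM in wild type (n = 4 each). Reads are summed over the gene's exons, so the count cannot show a removed exon, and these hearts are called labelled Acadl KO throughout. The words knockout and KO genotype below follow the labels alone. All 10 cardiomyocyte markers were detected in every library, with a summed level of 73909 to 97283 CPM. Of these, 1 was called higher and 2 lower in labelled Acadl KO / Acadvl wt against wild type. In labelled Acadl KO against Acadl Het 2 were higher and 3 lower, and in Acadvl KO against Acadvl wt 2 were higher and 3 lower. In labelled Acadl KO against Acadl Het hearts, 7 of 10 hepatocyte, 4 of 7 fibroblast and 3 of 4 atrial markers were called lower and 2 of 5 endothelial markers higher (edgeR), and against wild type 2 hepatocyte markers were higher and no marker of the other 3 types was called. All markers of these 4 types were detected in each genotype. Summed atrial markers were at 136 to 1958 CPM in the 9 libraries labelled Acadl KO and 177 to 538 CPM in Acadl Het with Acadvl wt or Het, and summed fibroblast markers were at 781 to 1048 CPM and 871 to 1229 CPM in the same order. Summed endothelial markers were at 848 to 1314 CPM in the libraries labelled Acadl KO and 811 to 1094 CPM in the Acadl Het ones, and summed hepatocyte markers at 50.5 to 182 CPM and 61.0 to 409 CPM. In Acadvl KO against Acadvl wt hearts, 1 leukocyte and 1 skeletal muscle marker were called higher. There 0 hepatocyte, fibroblast, atrial or endothelial markers were called. Summed leukocyte markers were at 63.0 to 132 CPM in Acadvl KO and 60.8 to 74.3 CPM in Acadl Het / Acadvl wt hearts. Summed fibroblast markers were at 895 to 1678 CPM and 884 to 1117 CPM in the same order. The part of these cell types in the results was not tested. Liver transcripts stood out in 6 libraries with more than 10 CPM of Alb: all 3 of Acadl Het / Acadvl Het, 1 of Acadl Het / Acadvl KO and 2 of labelled Acadl KO / Acadvl wt. The ribosomal RNA gene Rn45s took 17.3% of the counts in 1 Acadl Het / Acadvl Het library and at most 0.558% in the others. RNA was isolated in 2 batches (9 and 15 libraries), and batch was a term in every fit unless stated.

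Hspd1 and Hspe1 lie head to head on mouse chromosome 1 (mm10), Hspd1 at chr1:55077834-55087932 on the minus strand and Hspe1 at chr1:55088148-55091317 on the plus strand. The 215 bases between their annotated starts are therefore upstream of both genes. They are shown, with the 250 bases upstream of Lonp1 and of Spg7, because the paired genes rose unequally, Lonp1 rose in both knockouts and Spg7 fell in Acadvl KO hearts. Sequences are from RefSeq promoter windows (GRCm38.p6), printed 5′ to 3′ on the strand given, and capitals mark the motif matches named below.
Hspd1 and Hspe1 (chr1:55087933-55088147, plus strand): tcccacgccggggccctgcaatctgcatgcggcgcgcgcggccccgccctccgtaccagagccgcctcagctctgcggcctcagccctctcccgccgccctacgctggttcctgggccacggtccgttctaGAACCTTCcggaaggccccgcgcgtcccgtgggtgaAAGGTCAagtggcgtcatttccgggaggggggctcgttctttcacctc
Lonp1 (chr17:56626904-56627153, minus strand): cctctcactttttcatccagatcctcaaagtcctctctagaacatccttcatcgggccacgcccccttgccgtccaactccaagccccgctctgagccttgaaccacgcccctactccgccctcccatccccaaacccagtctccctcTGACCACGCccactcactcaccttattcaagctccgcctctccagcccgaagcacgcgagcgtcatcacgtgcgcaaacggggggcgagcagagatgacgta
Spg7 (chr8:123065258-123065507, plus strand): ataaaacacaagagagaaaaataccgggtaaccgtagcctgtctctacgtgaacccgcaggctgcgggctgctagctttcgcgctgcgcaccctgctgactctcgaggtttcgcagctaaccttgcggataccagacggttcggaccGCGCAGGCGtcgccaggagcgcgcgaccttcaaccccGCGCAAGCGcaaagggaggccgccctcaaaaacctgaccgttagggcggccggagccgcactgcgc
The shared stretch holds GAACCTTC, a match to the heat shock core GAANNTTC, 84 to 77 bases before the Hspe1 start, and AAGGTCA, the letters bound by estrogen-related receptors, 48 to 42 bases before it. The Lonp1 window holds TGACCACGC, a match to the antioxidant response core TGACNNNGC. The Spg7 window holds GCGCAGGCG and GCGCAAGCG, matches to GCGCANGCG, the core of the nuclear respiratory factor 1 site. Windows were found for 8 of the 10 genes. Hspa9 and Afg3l2 had none, so the motif counts below do not cover them. Hspd1 had a further window besides the shared stretch, with a GCGCANGCG match 59 to 51 bases before its start. Searched on both strands over the 250 upstream bases, with a gene counted once if any of its windows matched and the share given per window, GAANNTTC was in 2 of the 8 genes and in 6.69% of 32851 windows, AAGGTCA was in 3 and in 4.08%, TGACNNNGC was in 1 and in 10.2%, GCGCANGCG was in 3 and in 5.16%, CCAAT was in 2 and in 33.8%, and TGATGNAA, the core of the C/EBP-ATF response element, was in 0 and in 3.45%. The Hspd1 and Hspe1 matches to GAANNTTC are a single site in their shared stretch counted for both genes, and so are their matches to AAGGTCA, so the counts of genes cannot be set against the shares of windows. The other gene with AAGGTCA was Trap1. No motif overlapped another within the printed stretches. A match is a string of letters and was not tested as a binding site.

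**Figure D1:**
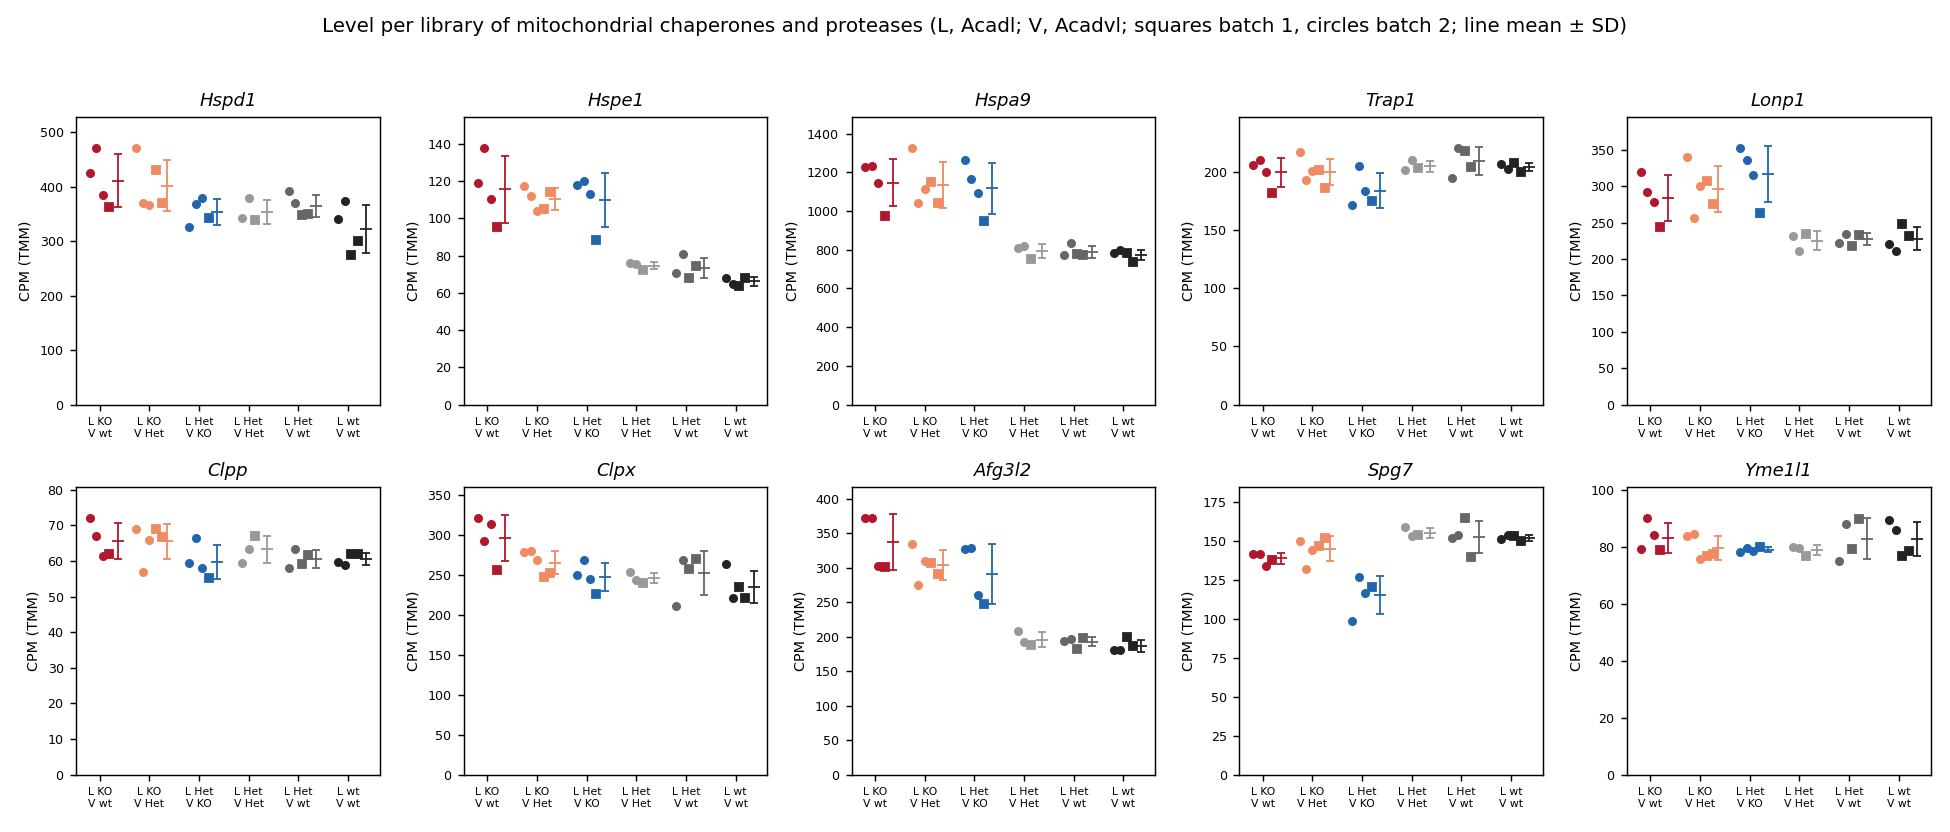
Level of each of the 10 genes in each library, in CPM with TMM scaling, by genotype (L, Acadl; V, Acadvl; squares and circles are RNA isolation batches 1 and 2; the line is the mean ± SD). Hspe1, Hspa9 and Afg3l2 are higher in all 13 libraries of the 3 KO genotypes than in all 11 others, and Spg7 is lowest in Acadl Het / Acadvl KO.

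Levels were set per kilobase of exon so that genes can be compared. In labelled Acadl KO / Acadvl wt hearts Hspa9 took rank 1 at 377 ± 39.8 CPM per kb (SD, n = 4), Hspd1 rank 2 at 176 ± 20.6, Hspe1 rank 3 at 150.4 ± 23.2 and Afg3l2 rank 4 at 110.2 ± 13.2, with Trap1 at rank 7 and 87.1 ± 5.4. Libraries of Hspe1 overlapped those of Hspd1, and libraries of Afg3l2 overlapped those of Clpx at rank 5. In Acadl Het / Acadvl KO hearts Lonp1 took rank 4 at 107 ± 13.1 and Spg7 rank 9 at 45.3 ± 4.8. There Lonp1 overlapped both Hspe1 at rank 3 and Afg3l2 at rank 5, and Spg7 overlapped Clpp at 49.5 ± 3.9. In wild-type hearts Hspa9 was also the most abundant at 255.0 ± 8.5 CPM per kb, and Yme1l1 the least at 18.1 ± 1.3. Between them stood Hspd1 at 138 ± 18.7, Trap1 at 89.0 ± 1.6, Hspe1 at 86.2 ± 3.0, Clpx at 81.4 ± 6.9, Lonp1 at 76.7 ± 5.3, Afg3l2 at 61.1 ± 2.8, Spg7 at 59.6 ± 0.74 and Clpp at 50.2 ± 1.3. The wild-type libraries of neighbours in this order overlapped from Trap1 to Lonp1 and between Afg3l2 and Spg7. Together the 10 genes took 0.263 to 0.323% of all counts in the 13 libraries of the KO genotypes and 0.202 to 0.255% in the 11 others, the lowest being the library rich in Rn45s. Hspa9 had the most counts of the 10 in every library and weighs most in this share.

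Of the 10 genes, 6 rose and 0 fell in labelled Acadl KO / Acadvl wt against wild type (edgeR quasi-likelihood test, Benjamini-Hochberg adjusted p under 0.05 over 15804 genes), where 19.6% of all genes rose and 17.6% fell. Against Acadl Het, with both Acadvl backgrounds weighted equally (9 against 7 libraries), 6 rose and 0 fell, where 26.7% of all genes rose and 27.9% fell. In Acadvl KO against Acadvl wt, both Acadl Het, 4 rose and 2 fell, where 12.9% of all genes rose and 11.5% fell. The median log2 change of the 10 was 0.30, 0.16 and -0.03 in these comparisons, beside -0.02, -0.02 and 0.02 over all genes. These comparisons share libraries: the labelled Acadl KO / Acadvl wt hearts enter both of the first, and Acadl Het / Acadvl wt hearts enter both of the last. The 10 genes were chosen with earlier results of these data known, so their counts beside these shares are not independent evidence. Without the libraries above 10 CPM of Alb, 3 rose and 0 fell against wild type (Hspe1, Hspa9 and Afg3l2), where 13.3% of all genes rose and 11.1% fell. The same 3 rose and 0 fell against Acadl Het (there with Acadvl wt alone), where 12.5% of all genes rose and 10.1% fell, and 4 rose and 2 fell in Acadvl KO hearts, where 9.43% rose and 7.98% fell. In 3 of the 10 genes, Hspe1, Hspa9 and Afg3l2, every library of a KO genotype stood above every other library, as did 4.97% of all genes. In bulk RNA, more transcript per cell and more cells of an expressing type cannot be told apart.

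**Figure D2:**
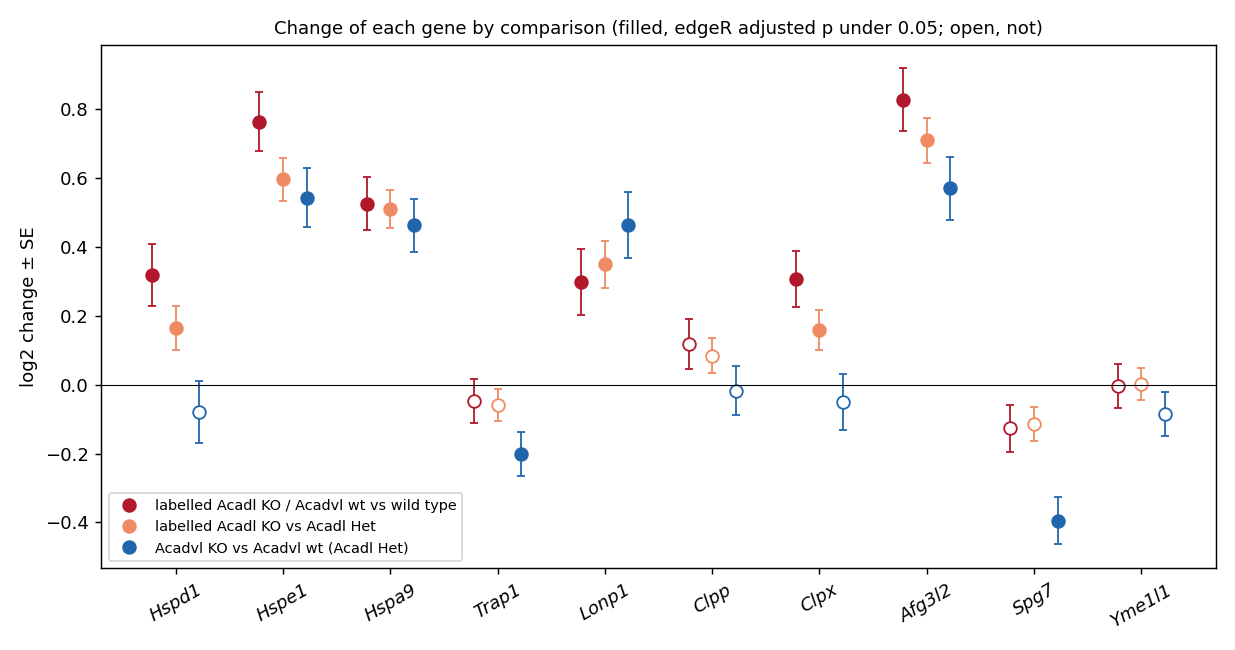
Log2 change ± SE of each gene in 3 comparisons (edgeR; filled points have an adjusted p under 0.05 over all genes, open points do not). Hspe1, Hspa9, Lonp1 and Afg3l2 are filled and above 0 in all 3 comparisons, Hspd1 and Clpx are filled in both comparisons of labelled Acadl KO hearts, and Trap1 and Spg7 are filled below 0 in Acadvl KO hearts.

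The lid of the chaperonin rose in both knockouts. In the knockout genotypes Hspe1 had 119, 138, 110.2 and 95.3 CPM with labelled Acadl KO / Acadvl wt, 117, 112, 104, 105 and 114 CPM with labelled Acadl KO / Acadvl Het, and 118, 119.9, 113 and 88.6 CPM with Acadl Het / Acadvl KO. It had 75.8, 75.3 and 72.4 CPM in Acadl Het / Acadvl Het hearts, 70.8, 80.6, 67.9 and 74.5 CPM in Acadl Het / Acadvl wt hearts and 68.0, 64.9, 63.6 and 68.2 CPM in wild-type hearts. The 13 libraries of the KO genotypes stood above the 11 others without overlap. The log2 change of Hspe1 was 0.76 ± 0.09 (adjusted p = 1.92e-06) in labelled Acadl KO / Acadvl wt against wild type, or 1.70-fold. It was 0.60 ± 0.06 (adjusted p = 1.32e-07) against Acadl Het and 0.54 ± 0.09 (adjusted p = 1.18e-04) in Acadvl KO against Acadvl wt. In the knockout genotypes Hspd1 had 426, 472, 385 and 363 CPM with labelled Acadl KO / Acadvl wt, 471, 370.1, 367, 430.1 and 371 CPM with labelled Acadl KO / Acadvl Het, and 326, 368, 379.6 and 342 CPM with Acadl Het / Acadvl KO. It had 343, 379.8 and 339 CPM in Acadl Het / Acadvl Het hearts, 392, 370.3, 349 and 350.1 CPM in Acadl Het / Acadvl wt hearts and 341, 374, 275 and 300.1 CPM in wild-type hearts. The chaperonin barrel Hspd1 had its 4 highest libraries among those labelled Acadl KO, and all genotypes overlapped at least in part. Its log2 change was 0.32 ± 0.09 (adjusted p = 0.00852) in labelled Acadl KO / Acadvl wt against wild type and 0.16 ± 0.06 (adjusted p = 0.0361) against Acadl Het. In Acadvl KO hearts the change of -0.08 ± 0.09 (adjusted p = 0.56) did not pass. The Hspd1 call against wild type was lost within batch 2 (0.26, 3 against 2 libraries, adjusted p = 0.127) and without the libraries above 10 CPM of Alb (0.29, adjusted p = 0.0709), and the call against Acadl Het was lost when any of 4 libraries was left out (0.13 to 0.16). It was also lost within batch 1 (0.15, adjusted p = 0.286), within batch 2 (0.17, adjusted p = 0.141) and without the libraries above 10 CPM of Alb (0.11, adjusted p = 0.531). Both genes lie 11.7 Mb from Acadl, the only 2 of the 10 on the chromosome of a targeted gene, and the part of linked strain differences was not tested.

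The length-scaled ratio of Hspd1 to Hspe1 was 1.18, 1.13, 1.15 and 1.25 in labelled Acadl KO / Acadvl wt hearts, 1.32, 1.09, 1.16, 1.35 and 1.07 with Acadvl Het and 0.91, 1.01, 1.11 and 1.27 in Acadl Het / Acadvl KO hearts. In the other hearts it was 1.49, 1.66 and 1.54 in Acadl Het / Acadvl Het, 1.82, 1.51, 1.69 and 1.55 in Acadl Het / Acadvl wt and 1.65, 1.9, 1.43 and 1.45 in wild type. Each KO library had a lower ratio than each other library, with 1.35 as the highest against 1.43 as the lowest. The transcripts of this pair thus did not change in proportion. Counts are per gene, so transcripts from the shared upstream stretch were not told apart from any others. The ratio is a description with no test. The annotation lists 5 pseudogene copies of Hspd1, 6 of Hspe1 and 1 of Hspa9, none of them in the count files, and reads that fit several places were counted at their primary alignment, so the levels of these 3 genes are uncertain in that respect.

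Hspa9, the import motor and the most abundant of the 10, rose in both knockouts. In the knockout genotypes Hspa9 had 1230.3, 1236, 1145 and 977 CPM with labelled Acadl KO / Acadvl wt, 1328, 1040.4, 1117, 1151 and 1041 CPM with labelled Acadl KO / Acadvl Het, and 1264, 1165, 1093 and 948 CPM with Acadl Het / Acadvl KO. It had 812, 821 and 754 CPM in Acadl Het / Acadvl Het hearts, 773, 833, 776 and 776 CPM in Acadl Het / Acadvl wt hearts and 784, 797, 783 and 738 CPM in wild-type hearts. The libraries of the KO genotypes did not overlap the others. The log2 change was 0.53 ± 0.08 (adjusted p = 3.09e-05) in labelled Acadl KO / Acadvl wt against wild type, 0.51 ± 0.06 (adjusted p = 2.46e-07) against Acadl Het, and 0.46 ± 0.08 (adjusted p = 1.91e-04) in Acadvl KO against Acadvl wt. In labelled Acadl KO / Acadvl wt against wild type the change was 0.37 within batch 1 (1 against 2 libraries, adjusted p = 0.175) and 0.61 within batch 2 (3 against 2, adjusted p = 0.00187). Trap1, the mitochondrial HSP90, went a different way. Trap1 had 207, 211, 200.2 and 182 CPM with labelled Acadl KO / Acadvl wt, 218, 194, 201, 202 and 187 CPM with labelled Acadl KO / Acadvl Het, 172, 205, 184 and 176 CPM with Acadl Het / Acadvl KO, 202, 211 and 203 CPM with Acadl Het / Acadvl Het, 195, 221, 219 and 205 CPM with Acadl Het / Acadvl wt and 207, 203, 208 and 200.03 CPM in wild type. The labelled Acadl KO hearts overlapped wild type, and 3 of 4 Acadvl KO libraries stood below every Acadl Het / Acadvl wt library. Trap1 changed by -0.05 ± 0.06 (adjusted p = 0.602) in labelled Acadl KO / Acadvl wt hearts, which did not pass, and fell by 0.20 ± 0.06 on the log2 scale (adjusted p = 0.0259) in Acadvl KO hearts. The Trap1 call was lost without Acadvl KO replicate 1 (-0.15) or 4 (-0.18), without Acadl Het / Acadvl wt replicate 2 (-0.18) or 3 (-0.17), and within batch 2 (-0.15, adjusted p = 0.282). The exons of Trap1 share 48 bases with Dnase1, and a read there was counted for both.

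Among the matrix proteases, Lonp1 rose in both knockouts. In the knockout genotypes Lonp1 had 319, 292, 279 and 243 CPM with labelled Acadl KO / Acadvl wt, 339.7, 257, 299.6, 307 and 275 CPM with labelled Acadl KO / Acadvl Het, and 353, 335, 316 and 263 CPM with Acadl Het / Acadvl KO. It had 231, 210.2 and 234 CPM in Acadl Het / Acadvl Het hearts, 222, 234, 217 and 233 CPM in Acadl Het / Acadvl wt hearts and 219.9, 211, 247 and 232 CPM in wild-type hearts. Lonp1 libraries of Acadvl KO hearts all stood above those of Acadl Het / Acadvl wt, as did 11.7% of all genes. The lowest labelled Acadl KO / Acadvl wt library, at 243 CPM and from batch 1, stood below the highest wild-type library at 247 CPM. The log2 change was 0.46 ± 0.10 (adjusted p = 0.00131) in Acadvl KO against Acadvl wt, 0.30 ± 0.10 (adjusted p = 0.0183) in labelled Acadl KO / Acadvl wt against wild type and 0.35 ± 0.07 (adjusted p = 2.16e-04) against Acadl Het. Against wild type the batches differed in size: 0.03 within batch 1 (1 against 2 libraries) and 0.47 within batch 2 (3 against 2). That call was lost without wild-type replicate 2 (0.26, adjusted p = 0.0571) and without the libraries above 10 CPM of Alb (0.29, adjusted p = 0.0836). The Lonp1 call against Acadl Het was lost within batch 1 (0.21) and without the libraries above 10 CPM of Alb (0.30, adjusted p = 0.0786).

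Clpx, the unfoldase that feeds Clpp, rose in labelled Acadl KO hearts. Clpx had 321, 292, 313 and 256 CPM with labelled Acadl KO / Acadvl wt, 278, 279, 268, 247 and 252 CPM with labelled Acadl KO / Acadvl Het, 249.7, 268, 245 and 226 CPM with Acadl Het / Acadvl KO, 253, 244 and 240.2 CPM with Acadl Het / Acadvl Het, 211, 269, 257 and 269 CPM with Acadl Het / Acadvl wt and 263, 221, 235 and 221 CPM in wild type. The labelled Acadl KO / Acadvl wt libraries overlapped wild type at their edges, 256 CPM at the lowest against 263 CPM at the highest, and Acadvl KO overlapped Acadl Het / Acadvl wt. The log2 change of Clpx was 0.31 ± 0.08 (adjusted p = 0.00513) against wild type and 0.16 ± 0.06 (adjusted p = 0.0236) against Acadl Het, and -0.05 ± 0.08 (adjusted p = 0.679) in Acadvl KO hearts, which did not pass. The call against wild type was lost without the libraries above 10 CPM of Alb (0.29, adjusted p = 0.0524). The Clpx call against Acadl Het was lost within batch 1 (0.01) and without the libraries above 10 CPM of Alb (0.19, adjusted p = 0.206). The peptidase Clpp ranged from 57.0 to 72.1 CPM in the 9 labelled Acadl KO libraries, from 55.2 to 66.4 CPM in Acadvl KO, and from 58.9 to 61.9 CPM in wild type. Its log2 change was 0.12 ± 0.07 (adjusted p = 0.21) against wild type and -0.02 ± 0.07 (adjusted p = 0.889) in Acadvl KO hearts, and neither passed. The length-scaled ratio of Clpp to Clpx averaged 0.533 ± 0.047 in labelled Acadl KO / Acadvl wt hearts, 0.577 ± 0.012 in Acadvl KO hearts and 0.620 ± 0.055 in wild type (SD, n = 4 each), and these overlapped.

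Of the m-AAA protease subunits, Afg3l2 rose in both knockouts and Spg7 fell in Acadvl KO hearts. In the knockout genotypes Afg3l2 had 372, 372, 303 and 301 CPM with labelled Acadl KO / Acadvl wt, 334, 275, 309.8, 308 and 292 CPM with labelled Acadl KO / Acadvl Het, and 327, 329, 261 and 247 CPM with Acadl Het / Acadvl KO. It had 208, 192 and 188 CPM in Acadl Het / Acadvl Het hearts, 193, 197, 183 and 199 CPM in Acadl Het / Acadvl wt hearts and 181, 181, 199 and 187 CPM in wild-type hearts. No Afg3l2 library of a KO genotype overlapped the others. Its log2 change, the highest of the 10 in each comparison, was 0.83 ± 0.09 (adjusted p = 1.48e-06) in labelled Acadl KO / Acadvl wt against wild type, or 1.77-fold, 0.71 ± 0.07 (adjusted p = 3.35e-08) against Acadl Het, and 0.57 ± 0.09 (adjusted p = 1.29e-04) in Acadvl KO against Acadvl wt. In the knockout genotypes Spg7 had 142, 142, 134 and 138 CPM with labelled Acadl KO / Acadvl wt, 150.5, 132, 144, 147 and 152 CPM with labelled Acadl KO / Acadvl Het, and 98.6, 127, 117 and 121 CPM with Acadl Het / Acadvl KO. It had 159, 153 and 154 CPM in Acadl Het / Acadvl Het hearts, 152, 154, 165 and 140.1 CPM in Acadl Het / Acadvl wt hearts and 151, 154, 154 and 150.4 CPM in wild-type hearts. Every Acadvl KO library had less Spg7 than every library of each other genotype. Set against Acadl Het / Acadvl wt alone, 1853 of 15804 genes stood below without overlap. Genes below all other genotypes at once were not counted, so how common that is remains unknown. Spg7 fell by 0.40 ± 0.07 on the log2 scale (adjusted p = 2.83e-04) in Acadvl KO against Acadvl wt. In labelled Acadl KO / Acadvl wt hearts all 4 libraries stood below the 4 wild-type libraries, as they did for 2796 of 15804 genes. The change of -0.13 ± 0.07 (adjusted p = 0.153) did not pass. Against Acadl Het it was -0.11 ± 0.05 (adjusted p = 0.0516) with edgeR and passed with DESeq2 (-0.11, adjusted p = 0.0466).

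The ratio of Afg3l2 to Spg7 per kilobase was 2.2, 2.19, 1.89 and 1.82 in labelled Acadl KO / Acadvl wt hearts, 1.86, 1.74, 1.79, 1.75 and 1.6 with Acadvl Het and 2.78, 2.17, 1.87 and 1.71 in Acadvl KO hearts. Without a knockout it was near parity, at 1.09, 1.05 and 1.02 in Acadl Het / Acadvl Het, 1.06, 1.07, 0.927 and 1.19 in Acadl Het / Acadvl wt and 1, 0.982, 1.08 and 1.04 in wild type. The lowest KO library, at 1.60, stood above the highest of the others, at 1.19. Afg3l2 can assemble by itself or with Spg7, while Spg7 needs a partner. Mice have a further partner, Afg3l1, which fell by 0.14 ± 0.05 on the log2 scale in Acadvl KO hearts (edgeR adjusted p = 0.0443). In labelled Acadl KO hearts Afg3l1 changed by 0.05 ± 0.05 (adjusted p = 0.458) against wild type and 0.07 ± 0.04 (adjusted p = 0.0893) against Acadl Het, and neither passed. Yme1l1, the i-AAA protease, stayed between 74.9 and 90.1 CPM in all 24 libraries. Its log2 change was -0.00 ± 0.06 (adjusted p = 0.965) in labelled Acadl KO / Acadvl wt against wild type and -0.09 ± 0.06 (adjusted p = 0.361) in Acadvl KO hearts, and neither passed.

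**Figure D3:**
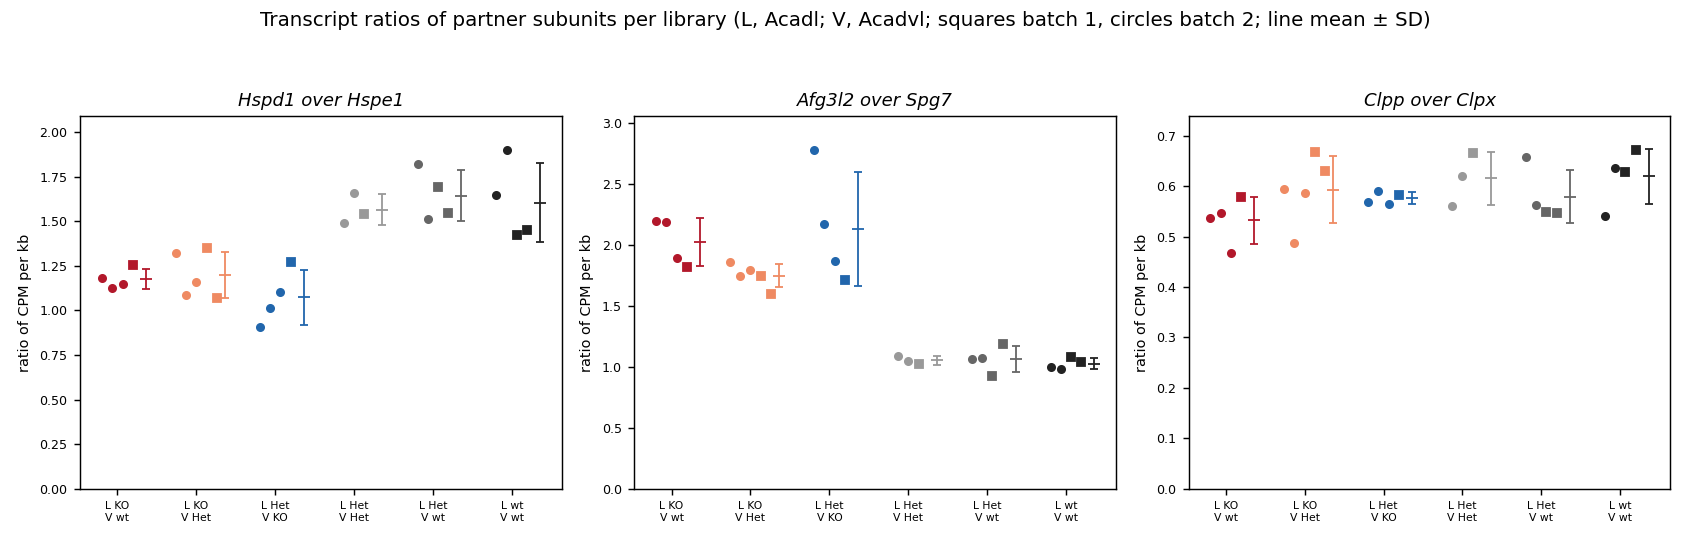
Ratio of length-scaled levels (CPM per kb) of partner genes in each library, by genotype (L, Acadl; V, Acadvl; squares and circles are RNA isolation batches 1 and 2; the line is the mean ± SD). Hspd1 over Hspe1 is at most 1.35 in the KO genotypes and at least 1.43 in the others, Afg3l2 over Spg7 is at least 1.60 against at most 1.19, and Clpp over Clpx overlaps.

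Each change that passed in these 3 comparisons had the same sign in both RNA isolation batches. For labelled Acadl KO / Acadvl wt against wild type (1 against 2 libraries in batch 1, 3 against 2 in batch 2) the log2 changes within batches 1 and 2 were 0.54 and 0.89 for Hspe1, 0.65 and 0.96 for Afg3l2, 0.18 and 0.36 for Clpx and 0.34 and 0.26 for Hspd1. For labelled Acadl KO against Acadl Het (3 against 3, and 6 against 4) they were 0.51 and 0.63 for Hspe1, 0.44 and 0.55 for Hspa9, 0.67 and 0.73 for Afg3l2, 0.21 and 0.41 for Lonp1, 0.01 and 0.26 for Clpx and 0.15 and 0.17 for Hspd1. For Acadvl KO against Acadvl wt (1 against 2, and 3 against 2) they were 0.33 and 0.63 for Hspe1, 0.30 and 0.55 for Hspa9, 0.38 and 0.65 for Afg3l2, 0.24 and 0.55 for Lonp1, -0.33 and -0.42 for Spg7 and -0.26 and -0.15 for Trap1. Batch 1 alone gave 0 calls against wild type, 3 against Acadl Het and 0 in Acadvl KO hearts, where 0.534%, 13.1% and 1.29% of all genes were called in either direction. Batch 2 alone gave 5 in each comparison, where 28.6%, 45% and 16.7% of all genes were called.

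Set directly against Acadl Het / Acadvl KO hearts, labelled Acadl KO / Acadvl wt hearts differed in 1 of the 10 genes, where 1.77% of all genes were higher and 2.66% lower. Spg7 was higher by 0.26 ± 0.07 (adjusted p = 0.0313), with all 4 labelled Acadl KO libraries above all 4 Acadvl KO libraries, as in 4.26% of all genes. The Spg7 call was lost without labelled Acadl KO / Acadvl wt replicate 1 (0.24), 2 (0.24) or 4 (0.25), without Acadvl KO replicate 1 (0.18), 3 (0.26) or 4 (0.27), without the libraries above 10 CPM of Alb (0.31, adjusted p = 0.125), and within batch 1 (0.19) or batch 2 (0.29). All genes called in either direction came to 0.486% without the Alb libraries, 0.031% within batch 1 and 0.342% within batch 2. Clpx differed by 0.26 ± 0.08 (adjusted p = 0.0661), Hspd1 by 0.21 ± 0.09 (adjusted p = 0.164) and Lonp1 by -0.16 ± 0.09 (adjusted p = 0.324), none of which passed with edgeR, and Clpx passed with DESeq2 (0.25, adjusted p = 0.0334). Clpx also passed with edgeR without Acadl Het / Acadvl wt replicate 1 (0.24, adjusted p = 0.0252). Hspd1 and Clpx thus passed in labelled Acadl KO and not in Acadvl KO hearts. With edgeR on all libraries, neither had a difference between the knockouts that passed. Hspe1 and Hspa9 differed by 0.07 ± 0.08 (adjusted p = 0.645) and 0.04 ± 0.08 (adjusted p = 0.809).

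None of the 10 passed in the comparisons of heterozygous hearts. In Acadl Het / Acadvl wt against wild type the log2 changes lay between -0.01 and 0.18, with 0 called, 0 at an unadjusted p under 0.05, and 0% of all genes called. In Acadvl Het against Acadvl wt, averaged equally over labelled Acadl KO and Acadl Het hearts (8 against 8 libraries), they lay between -0.10 and 0.04, with 0 called, 0 at an unadjusted p under 0.05, and 0.00633% of all genes called in each direction. The change on labelled Acadl KO differed between Acadvl Het and Acadvl wt by -0.14 to 0.09, with 0 of the 10 and 0% of all genes called and 0 of the 10 at an unadjusted p under 0.05. DESeq2 and limma voom also called 0 of the 10 in these comparisons. All of these values are from edgeR unless named.

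The counts of the gene lists below stand beside the shares of all genes given above: 19.6% higher and 17.6% lower against wild type, 26.7% and 27.9% against Acadl Het, and 12.9% and 11.5% in Acadvl KO hearts. The lists too were chosen with earlier results of these data known. Of a list of 12 mitochondrial co-chaperones and assembly chaperones, 4 rose and 0 fell in labelled Acadl KO / Acadvl wt against wild type. The counts were the same in labelled Acadl KO against Acadl Het and in Acadvl KO against Acadvl wt. Grpel2, a nucleotide exchange factor of the matrix HSP70, changed by 1.43 ± 0.15, adjusted p = 8.58e-07 on the log2 scale against wild type, and its relative Grpel1 by 0.51 ± 0.10, adjusted p = 7.01e-04 (edgeR). Dnaja3, a J-protein partner of Hspa9, changed by 0.47 ± 0.09, adjusted p = 2.82e-04, and Dnajc11, a J-protein bound to the inner membrane organising complex, by 0.78 ± 0.11, adjusted p = 1.21e-05. Against Acadl Het Grpel2 (1.42 ± 0.11), Dnajc11 (0.74 ± 0.08) and Grpel1 (0.46 ± 0.07) rose. In Acadvl KO against Acadvl wt Grpel2 changed by 1.35 ± 0.15, adjusted p = 3.88e-06, and Dnajc11 (0.60 ± 0.10) and Dnaja3 (0.38 ± 0.09) rose. Median log2 changes of the 12 were 0.14, 0.08 and 0.02 in the 3 comparisons.

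Of 19 other mitochondrial proteases and scaffolds, 3 rose and 3 fell in labelled Acadl KO / Acadvl wt against wild type, 3 rose and 5 fell against Acadl Het, and 2 rose and 7 fell in Acadvl KO hearts. The prohibitins Phb2 (0.64 ± 0.08) and Phb (0.46 ± 0.08), which form the ring that holds the m-AAA protease, and the rhomboid protease Parl (0.36 ± 0.07) rose against wild type (log2 change ± SE). The kinase Pink1 (-0.43 ± 0.08), the filament protein Lactb (-0.36 ± 0.13) and the presequence-trimming peptidase Mipep (-0.19 ± 0.06) fell. In Acadvl KO hearts Pink1 (-0.69 ± 0.08), Lactb (-0.58 ± 0.13) and the inner membrane protease Oma1 (-0.40 ± 0.09) fell. Against Acadl Het Phb2 (0.57 ± 0.06) and Parl (0.42 ± 0.05) rose and Pink1 (-0.43 ± 0.05) fell. The counts of this list lay near or below the shares of all genes, except the 7 of 19 that fell in Acadvl KO hearts. Of 12 substrates and partners of these proteases, 4 rose and 1 fell against wild type, 5 rose and 1 fell against Acadl Het, and 1 rose and 1 fell in Acadvl KO hearts. Alas1, the heme synthesis enzyme that LONP1 degrades in human cells, rose (1.30 ± 0.15 and, in Acadvl KO hearts, 1.03 ± 0.15), as did the mitochondrial DNA packaging factor Tfam (0.43 ± 0.07), also degraded by LONP1 in human cells, and Mrpl32 (0.36 ± 0.08), the ribosomal protein that the m-AAA protease matures. Against Acadl Het Alas1 (1.101 ± 0.11) and Mrpl32 (0.33 ± 0.06) rose. Pink1 is on this list also, and was its gene that fell in each comparison.

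Of 10 transcription factors and regulators of the mitochondrial stress response, 7 rose and 1 fell against wild type, 8 rose and 1 fell against Acadl Het, and 5 rose and 1 fell in Acadvl KO hearts. This list holds genes of the stress response that the study's title names, so it is not independent evidence. Atf4 (1.95 ± 0.20), Atf5 (1.32 ± 0.31) and Ddit3 (1.37 ± 0.25) rose against wild type, as did the heat shock factor Hsf1 (0.33 ± 0.10) the estrogen-related receptor Esrra (0.83 ± 0.10) and the coactivator of mitochondrial biogenesis Ppargc1a (1.49 ± 0.39). Against Acadl Het Atf4 (1.77 ± 0.15), Ppargc1a (1.62 ± 0.29) and Atf5 (1.26 ± 0.22) rose. In Acadvl KO hearts Atf4 (2.20 ± 0.21), Atf5 (1.97 ± 0.31) and Ddit3 (1.87 ± 0.25) rose, and Ppargc1a was at 0.74 ± 0.39 (adjusted p = 0.171), which did not pass.

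Chaperones of other compartments were counted in the same way. Of 21 cytosolic chaperones, 10 rose and 0 fell in labelled Acadl KO / Acadvl wt against wild type, 10 rose and 1 fell against Acadl Het, and 2 rose and 2 fell in Acadvl KO hearts. Cct3 (0.49 ± 0.07) and Cct2 (0.49 ± 0.09), subunits of the cytosolic relative of the mitochondrial chaperonin, and Hspa4 (0.48 ± 0.06), an exchange factor of cytosolic HSP70, rose against wild type, as did the HSP70 co-chaperone Bag3 (0.40 ± 0.14), the HSP90 gene Hsp90aa1 (0.38 ± 0.10) and Cct5 (0.35 ± 0.07). Against Acadl Het Bag3 (0.57 ± 0.10), Hspa4 (0.48 ± 0.05) and Cct2 (0.46 ± 0.06) rose. In Acadvl KO hearts Hspa4 (0.35 ± 0.06) and Cct3 (0.22 ± 0.07) rose and the J-protein Dnaja1 (-0.42 ± 0.09) fell. Of 15 chaperones of the endoplasmic reticulum, 1 rose and 3 fell against wild type, 1 rose and 9 fell against Acadl Het, and 1 rose and 3 fell in Acadvl KO hearts. The one that rose was Dnajb9 (1.05 ± 0.16), a J-protein of that compartment, while the disulfide isomerases Pdia4 (-0.70 ± 0.18) and Pdia6 (-0.25 ± 0.08) and the gene Creld2 (-0.38 ± 0.12) fell. Against Acadl Het Dnajb9 (0.93 ± 0.11) rose and Pdia4 (-0.9999 ± 0.13) and Sdf2l1 (-0.74 ± 0.14) fell. In Acadvl KO hearts Dnajb9 (1.05 ± 0.16) rose and Pdia4 (-0.54 ± 0.18) and Creld2 (-0.38 ± 0.12) fell. Of 20 other mitochondrial housekeeping genes, 5 rose and 1 fell against wild type, 5 rose and 1 fell against Acadl Het, and 3 rose and 4 fell in Acadvl KO hearts. The share of this list that rose against wild type and against Acadl Het was near that of all genes. Among these the import channel Tomm40 (0.81 ± 0.09), the receptors Tomm70a (0.62 ± 0.09) and Tomm20 (0.40 ± 0.10) and the outer membrane channels Vdac2 (0.28 ± 0.06) and Vdac3 (0.18 ± 0.06) rose against wild type, and Vdac1 (-0.19 ± 0.06) fell. Against Acadl Het Tomm40 (0.70 ± 0.07), Tomm70a (0.51 ± 0.06) and Tomm20 (0.46 ± 0.07) rose. In Acadvl KO hearts Tomm40 (0.58 ± 0.09) and Tomm70a (0.29 ± 0.09) rose and the respiratory subunit Sdha (-0.31 ± 0.07) fell. Median log2 changes against wild type were 0.18 for the cytosolic list, -0.09 for the endoplasmic reticulum list and 0.08 for the housekeeping list.

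**Figure D4:**
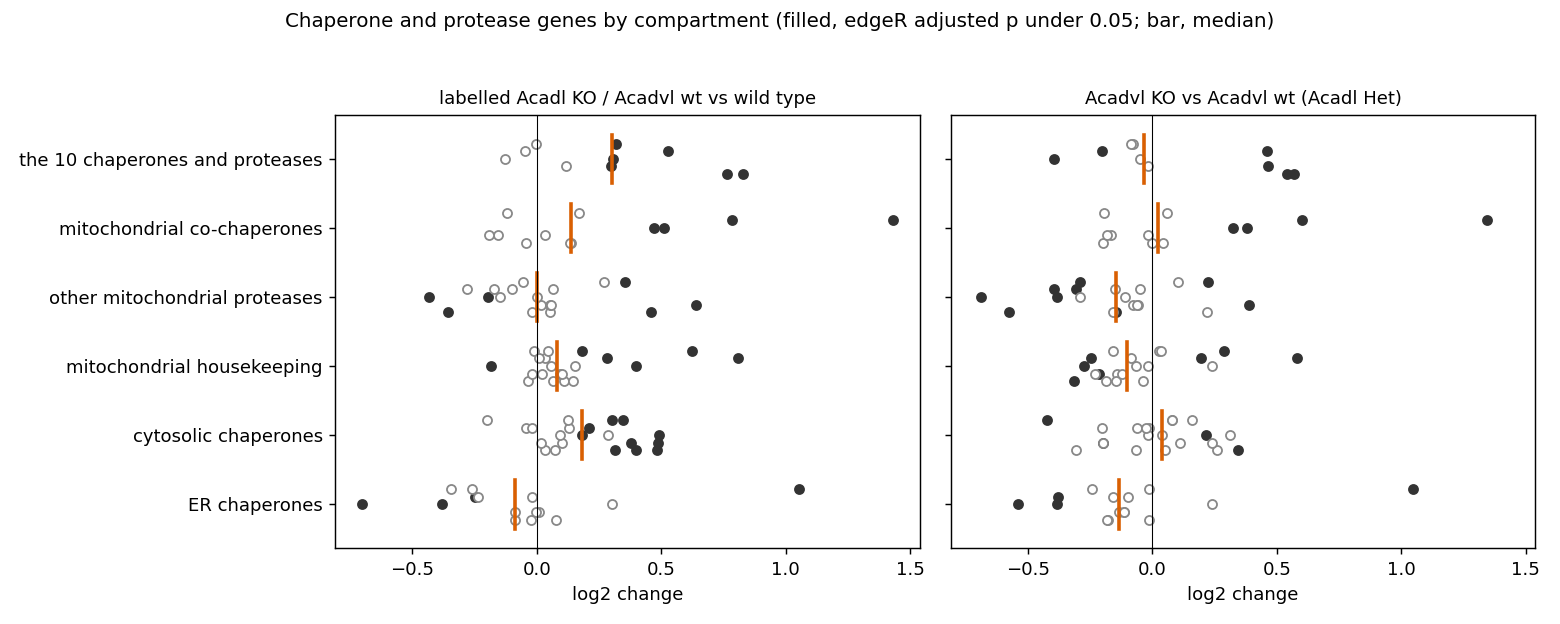
Log2 change of single genes in 6 lists, for labelled Acadl KO / Acadvl wt against wild type (left) and Acadvl KO against Acadvl wt (right). Each point is a gene, filled where edgeR's adjusted p over all genes was under 0.05, and the bar is the list median, which for the 10 chaperones and proteases is 0.30 on the left and -0.03 on the right.

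Across the 24 libraries the patterns of the 10 genes were compared by the root mean square difference of log2 CPM after centring each gene, with a smaller value for a closer pattern. Within the 10, the closest pairs were Trap1 and Yme1l1 (0.097) and Trap1 and Clpp (0.101), genes that varied little. The root mean square of each alone was 0.092 for Trap1, 0.080 for Yme1l1 and 0.098 for Clpp. Those lie below the values of their pairs, so these pairs show low spread and no shared pattern. Hspe1 and Afg3l2 differed by 0.11 and Hspa9 and Lonp1 by 0.11, while Afg3l2 and Spg7 differed by 0.47, the widest of all pairs. Over 8970 genes at 10 CPM or more on average, the closest to Hspa9 were Larp1b (0.066), Dnaja3 (0.078) and Rrn3 (0.08), of which Dnaja3 is its J-protein partner. Closest to Hspe1 were Sec24a (0.098), Mapk6 (0.101) and Cstf1 (0.103), and to Hspd1 they were Hadha (0.091), Vwa8 (0.102) and Dlat (0.103). For Afg3l2 they were Eif2b4 (0.08), Carm1 (0.083) and Nmt1 (0.084), and for Spg7 Me3 (0.065), Bckdk (0.068) and Gbas (0.075). Lonp1 stood closest to Eif3c (0.077), Sbf1 (0.086) and Myo1c (0.093), and Clpx to Cul1 (0.072), Phf20l1 (0.075) and Churc1 (0.082). The measure is not scaled by spread, so genes that varied little must have neighbours that also varied little. Trap1 stood closest to Pccb (0.058) and Pdha1 (0.06), and Clpp to Tars2 (0.053), Chchd2 (0.054) and Samm50 (0.056). Yme1l1 stood closest to Canx (0.051), Sept2 (0.053) and Rnf13 (0.058). These are descriptions over shared libraries, with no test.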

How the data were processed

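Each library came with a file of raw counts by gene symbol, as deposited by the authors. Per the file headers, featureCounts 1.5.2 assigned primary alignments to UCSC mm10 exons without strand, and reads over several genes went to all of them. Per the submitters' processing notes, alignment used STAR 2.5.1b, and featureCounts is given there as 1.5.3. A deposited series table held the same counts (0 cells differed, 26 symbols altered) and was used for that check alone.

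The counts were tested with edgeR 4.0.16 (R 4.3.3): filterByExpr on the 6 genotypes left 15804 genes, TMM scaling, and 1 quasi-likelihood fit of all 24 libraries with genotype and RNA isolation batch. Tests were two-sided with Benjamini-Hochberg adjustment over all genes and a threshold of 0.05. Standard errors came from the F statistic. Levels are CPM with TMM factors. Likeness used log2 CPM with a prior count of 2. Alternatives were RLE factors, DESeq2 1.42.0, limma voom 3.58.1 with and without the number shared in titles as a random effect, no filter, no batch term, each batch alone, no Rn45s, no libraries above 10 CPM of Alb, and each library left out.

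The 10 members, 7 gene lists and tests were chosen with earlier results of these data known. Named are all 10 genes, the 3 genes closest to each (1 of those closest to Trap1, and 1 list member, are not reported here), Acadl and Acadvl, and called list members with the largest log2 change (up to 6 a list against wild type, 3 otherwise). Genes outside the rule (Afg3l1, and Alb and Rn45s) were chosen after their values were seen. Replicate numbers follow accession order and pair nothing.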

Additional observations from a re-analysis of the deposited data

Results flagged for a closer look

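In 65 sets of values (the 10 genes and the 3 ratios in each genotype of 4 or 5 libraries), 3 had a library far from the rest by Dixon's test, where chance gives about 1 in 20. Clpp was at 57.0 CPM in labelled Acadl KO / Acadvl Het replicate 2, below the 66.0 to 69.1 CPM of the 4 others. Hspa9 was at 833 CPM in Acadl Het / Acadvl wt replicate 2, above the 773 to 776 CPM of the 3 others. The length-scaled ratio of Clpp to Clpx was 0.658 in Acadl Het / Acadvl wt replicate 1, above the 0.548 to 0.564 of the 3 others. Leaving out each of these libraries changed no call of Clpp or Hspa9 except that Clpp passed in labelled Acadl KO against Acadl Het without labelled Acadl KO / Acadvl Het replicate 2 (0.11, adjusted p = 0.0445). Clpx passed between the knockouts without Acadl Het / Acadvl wt replicate 1 (0.24, adjusted p = 0.0252).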

How the results depend on the processing

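No paired analysis was possible because replicate numbers were given in accession order. Some titles share a leading number whose meaning is not stated. Limma voom with that number as a random effect (correlation 0.0269) called the same members as edgeR in the 4 comparisons below. So did limma voom without it. Every member called with edgeR kept its direction under all alternatives, and calls of Hspe1, Hspa9 and Afg3l2 were lost only within batch 1. Within batch 1 (1 or 2 libraries a group) 0 members were called in labelled Acadl KO / Acadvl wt against wild type (median log2 change 0.10), where 86 of all genes were called against 5874 in all libraries, 3 against Acadl Het, 0 in Acadvl KO and 0 between the knockouts, and the median of the change that differs with Acadvl Het was 0.12. Within batch 2 the median in Acadvl KO was 0.0483, and 0 were called between the knockouts. Without libraries above 10 CPM of Alb, 3 were called against wild type, 3 against Acadl Het and 0 between the knockouts. There Acadl Het is set by labelled Acadl KO / Acadvl wt against Acadl Het / Acadvl wt. No such value was possible for the difference with Acadvl Het, because no Acadl Het / Acadvl Het library was left. DESeq2 called Spg7 and Clpx between the knockouts. Each library was left out in turn. The call of Lonp1 against wild type was then lost 1 time and that of Hspd1 against Acadl Het 4 times. Those of Trap1 in Acadvl KO and of Spg7 between the knockouts were lost 4 and 6 times. Against Acadl Het, Spg7 gained a call 4 times and Clpp 1 time, and Clpx gained 1 between the knockouts. The call of Hspd1 against Acadl Het was lost without labelled Acadl KO / Acadvl Het replicate 1 or 4, Acadl Het / Acadvl Het replicate 1 or Acadl Het / Acadvl wt replicate 2 (0.13 to 0.16).

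Signs changed only for members that were not called. Yme1l1 against wild type was 0.00197 with RLE factors, 0.00216 with DESeq2, 0.00914 with no batch term, 0.0323 within batch 1 and 0.00592 without Rn45s, and -0.0232 to 0.0345 with a library left out. Against Acadl Het it was -0.0422 within batch 1, -0.0713 without the Alb libraries and -0.0186 to 0.0365 with a library left out, and between the knockouts -0.0212 within batch 1. Trap1 against wild type was 0.013 within batch 2. In Acadvl KO, Clpp was 0.0126 and Clpx 0.084 within batch 2, and -0.0699 to 0.0405 and -0.135 to 0.0143 with a library left out. Between the knockouts Hspe1 was -0.0271 to 0.112 and Hspa9 -0.0202 to 0.0739 with a library left out. The causes were not tested.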
